A study of Caenorhabditis elegans with 4 samples.

Results

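Chromosome II carried 412 of the 3467 JUN-1 peaks in the combined list of this series. The peaks were taken by position alone, as every peak that the list places on chromosome II. The assay was ChIP-seq, which sequences the DNA that an antibody pulls down from sheared, crosslinked chromatin. Samples came from Caenorhabditis elegans hermaphrodites of strain OP234 at the L3 larval stage, kept at 20 °C. The genotype was unc119(ed3) with the transgene wgIs234, a copy of T24H10.7 (jun-1) carrying TY1, EGFP and FLAG tags together with unc119, introduced by bombardment. The antibody was a goat serum against GFP, so what was pulled down is the tagged protein of 1 transgenic strain and not JUN-1 in wild-type worms. The study had 2 ChIP samples and 2 input samples, all of the same strain, stage and temperature, and no strain without the tag. Peak lists of the 2 ChIP replicates and the combined list were used here, and the input samples had no values.

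JUN-1 is the worm member of the Jun family. These proteins bind DNA through a basic leucine zipper, usually as a pair with a Fos-type partner, and the pair is known as AP-1. AP-1 factors are known for transcription after stress, wounding and growth signals. In worm autosomes the central regions recombine little and hold many widely expressed, conserved genes, whereas the arms recombine more and are richer in repeats and in fast-evolving gene families. No worm genome of the build of the lists (WormBase WS180) was used, so regions are given by position, without bases or genes.

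Each peak has 1 measurement, the q-value, a p-value that the authors' peak caller had adjusted for multiple testing. It is given as −log10 q, so larger values mean stronger evidence of enrichment and not more binding. The read depth behind the lists is unknown. Replicate 1 had 103 peaks on chromosome II among 918 in all, and replicate 2 had 412 among 3472. On chromosome II, 394 of the combined peaks (95.6%) had the start, end and q-value of a replicate 2 peak, and the 18 others all lay between 12 and 13 Mb. The combined and replicate 2 lists therefore count as 1 source here, and replicate 1 is the check on them. The labels do not say that the replicates were separate cultures. Intervals of shares and of density ratios are 95% exact (Clopper-Pearson) intervals for counting error. Those of odds ratios are 95% intervals by a normal approximation on the log scale. The tests treat neighbouring peaks as independent, which makes their p-values too small.

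Chromosome II had fewer peaks per Mb than any other autosome. Its 412 peaks over 15.3 Mb gave 27.0 peaks per Mb, against 29.1 on V, 36.3 on IV, 39.9 on III and 46.2 on I. It held 14.2% of the autosomal peaks (interval 13.0 to 15.6%) on 18.5% of the autosomal span. Its density was 0.729 times that of the other 4 autosomes together (0.655 to 0.810, two-sided exact binomial test, adjusted p = 4.37e-09 over the 5 planned comparisons). The replicate 1 list gave a ratio of 0.723 (exact binomial test, adjusted p = 0.00959), with 6.75 peaks per Mb on II and 7.16 to 12.0 on the other autosomes. The neighbours in this order, V in the combined list and I in the replicate 1 list, lay close above II and were not tested against it singly.

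The low density was most marked at 1 end of the chromosome. The first 5 stretches of 1 Mb, counted from the low-numbered end, held 9, 19, 16, 12 and 22 combined peaks. The next stretch, from 5 to 6 Mb, was the fullest of all 15 complete stretches, with 44 peaks. From 6 to 12 Mb the counts were 32, 33, 41, 41, 30 and 31. They fell to 18 between 12 and 13 Mb and were 28 and 27 in the last 2 complete stretches, followed by 9 peaks in the final 0.263 Mb. Other autosomes had a median of 36 peaks per complete stretch, with a range of 12 to 77 over 64 stretches. Only the stretches beginning at 5, 8 and 9 Mb of chromosome II were above that median.

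**Figure D1:**
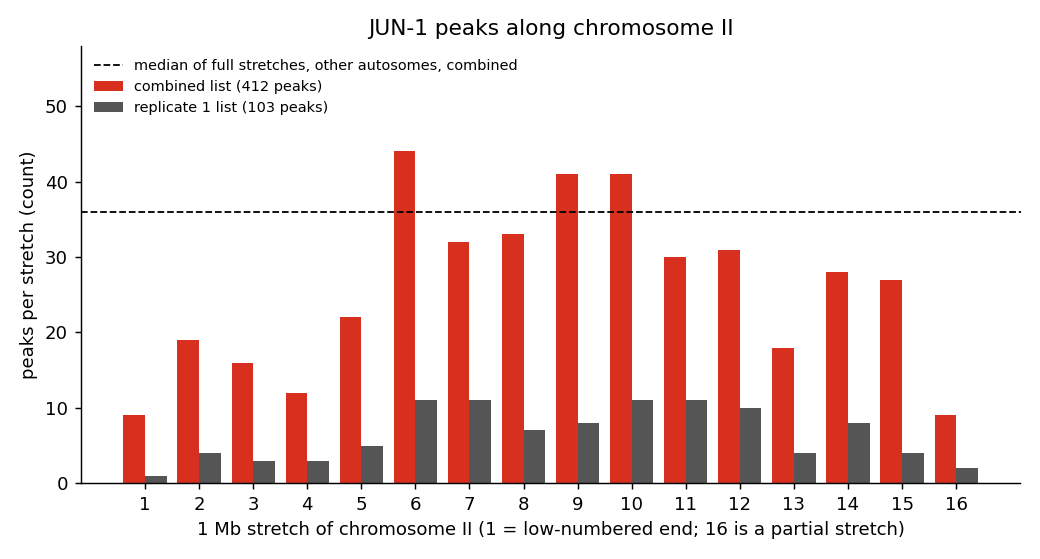
Number of peaks in each 1 Mb stretch of chromosome II, in the combined list and in the replicate 1 list; the dashed line is the median of 36 combined peaks per complete stretch on the other 4 autosomes. Counts rose from 9 to 22 over the first 5 stretches to 44 in the sixth, and replicate 1 was likewise low in the first 5, with 1 to 5 peaks.

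Replicate 1 was also sparse at the low-numbered end and fuller in most stretches beyond it, with differences in the order of stretches. It had 1, 4, 3, 3 and 5 peaks in the first 5 stretches and 11 in the stretch that was fullest in the combined list. It also had 11 peaks in each of the stretches beginning at 6, 9 and 10 Mb, where the combined list had 32, 41 and 30. The stretch beginning at 8 Mb, with 41 combined peaks, had 8 replicate 1 peaks, and the one beginning at 7 Mb had 7. Replicate 1 counts as low as at the low-numbered end, 4 peaks each, were found in the stretches beginning at 12 and 14 Mb. The combined list had 18 and 27 peaks there. The emptiest complete stretch in both lists was the first. Its 9 combined peaks had a gap of 587 kb between positions 286474 and 873077, the longest gap on any autosome in the combined list. The first 7 of these peaks lay below that gap, had −log10 q values of 3.65 to 8.59 and had no replicate 1 partner. The last, at chrII:915229-915646, had a −log10 q of 39.4 and was the only one of the 9 with a partner.

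When the span was cut into 3 equal lengths of 5.09 Mb, the low-numbered part held 81 peaks, the middle 193 and the high-numbered part 138. These were 15.9, 37.9 and 27.1 peaks per Mb. In the middle part the share of the chromosome's peaks was 46.8% (41.9 to 51.8%), beside 42.3% over all 6 chromosomes. The same share was 43.0% on the other autosomes, a difference of 3.89 percentage points that did not pass Fisher's exact test (two-sided, adjusted p = 0.229, odds ratio 1.17, 0.949 to 1.44). Replicate 1 placed 47.6% of its chromosome II peaks there. A stronger central crowding on II than on other autosomes was therefore not shown.

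Chromosome II differed from the other autosomes at its low-numbered end. That part held 19.7% of its peaks (15.9 to 23.8%), against 29.1% on the other autosomes (odds ratio 0.595, 0.460 to 0.770, two-sided Fisher's exact test, p = 5.16e-05, adjusted over 6 tests 0.000155). This comparison was chosen after the counts had been seen. On I, III, IV and V the share was 27.9, 30.2, 33.4 and 25.1%. Ends were matched between chromosomes by numbering alone, and the high-numbered part of IV held 24.1% of its peaks. Replicate 1 had 17 of its 103 peaks there (16.5%), against 28.0% elsewhere (odds ratio 0.509, Fisher's exact test, adjusted p = 0.0463). Per Mb, the low-numbered part of II had 0.492 times the peaks of the same part of the other autosomes (0.386 to 0.619), the middle part 0.795 times (0.679 to 0.928) and the high-numbered part 0.875 times (0.724 to 1.05). In replicate 1 the 3 ratios were 0.427, 0.786 and 0.919. Gene content, mappability and repeats of this end were not analysed, and their part in the deficit was not tested.

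**Figure D2:**
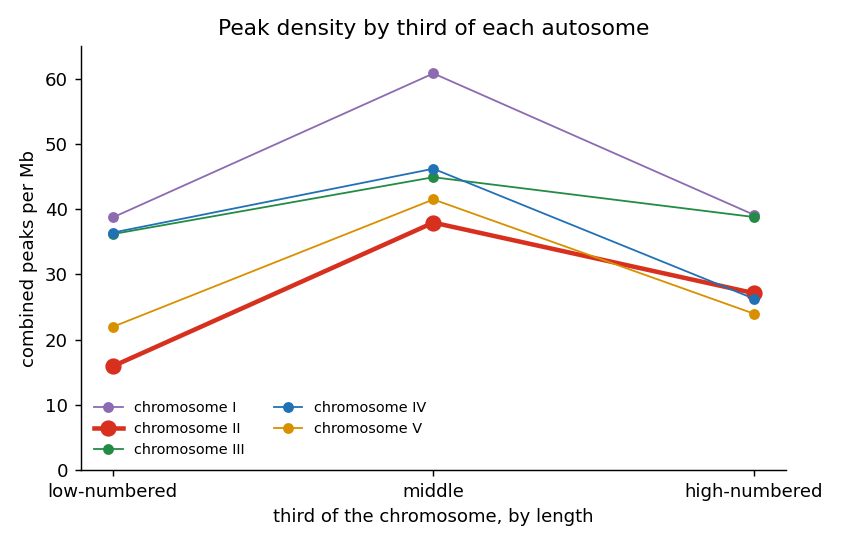
Combined peaks per Mb in the low-numbered, middle and high-numbered part of each autosome, each part being an equal length. Chromosome II (thick red line) had 15.9 peaks per Mb in the low-numbered part, the lowest of the 5, and 27.1 in the high-numbered part, between IV with 26.3 and III with 38.8.

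The counts of broad peaks also differed between the parts. The low-numbered part had 5 peaks of 800 bp or more (6.17% of its peaks), the middle 37 (19.2%) and the high-numbered part 30 (21.7%). None of the 14 peaks of 2000 bp or more lay in the low-numbered part, while 7 lay in each of the others. These small counts were not tested and were not compared with the same parts of the other autosomes. Median widths were nevertheless close, at 415, 428 and 452 bp, and so were the median −log10 q values, at 6.39, 6.27 and 6.78. A replicate 1 peak overlapped 21.0% of the peaks in the low-numbered part (12.7 to 31.5%), 24.9% in the middle (18.9 to 31.6%) and 26.1% in the high-numbered part (19.0 to 34.2%), with overlapping intervals.

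Most peaks on chromosome II were narrow, and a few were very broad. The median width was 432.5 bp, with quartiles of 336 and 596 bp, and the other autosomes had medians of 388 to 423 bp. The 22 peaks under 200 bp included 4 under 30 bp, the narrowest being 3 bp wide at chrII:2510802-2510804. Of these 22, 0 had a replicate 1 partner (exact upper bound 15.4%), beside 0 of the 115 such peaks on the other autosomes. No replicate 1 peak on II or on any other chromosome was under 203 bp. At the other end, 72 peaks (17.5%, 13.9 to 21.5%) were 800 bp or wider, beside 16.2% over all 6 chromosomes. On the other autosomes the share was 14.9%, a difference that did not pass the test (odds ratio 1.21, 0.917 to 1.60, Fisher's exact test, adjusted p = 0.229). The peaks nearest to that limit were 808 bp wide above it and 795 bp below it.

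Against the other autosomes, the excess on chromosome II lay in the widest class. Peaks of 2000 bp or more numbered 14 of 412 on II (3.40%) and 37 of 2484 on the other autosomes (1.49%, odds ratio 2.33, Fisher's exact test, adjusted p = 0.0326). Peaks of 4000 bp or more numbered 7 on II and 6 on the 4 other autosomes together (odds ratio 7.14, Fisher's exact test, adjusted p = 0.00222). Replicate 1 had 8 peaks of 2000 bp or more on II and 13 on the others (odds ratio 3.97, Fisher's exact test, adjusted p = 0.0127). Among those 8, the peaks of 14556 and 9968 bp lay in the same widest combined peak. Those of 3943 and 2176 bp lay in the same run of adjacent peaks. They were counted separately, and joining them was not tried in replicate 1. X, outside these comparisons, had 21 of 571 combined peaks of 2000 bp or more, a share not below that of II. It had 1 combined peak of 4000 bp or more, and 4 of 189 replicate 1 peaks of 2000 bp or more. Both limits were chosen after the widths had been seen. With the longest run of adjacent peaks on II counted as 1, 12 of 409 peaks on II (2.93%) reached 2000 bp, an odds ratio of 2.00 that did not pass (adjusted p = 0.116 by the exact test). Runs on the other autosomes stayed as separate peaks in that setting. Against III, IV and V alone the odds ratio was 2.22, with 1.56% on those chromosomes, and did not pass either (adjusted p = 0.0630 by the exact test). With the longest run counted as 1 and the widest stretch left out, the odds ratio was 1.83 (adjusted p = 0.153 by the exact test). At the planned limit of 1500 bp the shares were 5.10 and 3.62% (odds ratio 1.43, adjusted p = 0.206 by the exact test). The excess thus kept its direction in these settings. It passed only at limits chosen after the widths had been seen, not in every setting there, and on small counts.

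These few peaks made up a large share of the bound length. The peaks on II covered 277 kb in all, 18.2 kb per Mb, which was above V (17.3) and below IV (19.2), III (22.6) and I (23.2). The 14 peaks of 2000 bp or more made up 27.7% of the covered length, against 6.94 to 12.3% on the other autosomes singly. The widest peak alone made up 9.13%. Without each chromosome's widest peak, II covered 16.5 kb per Mb and fell below V, which then covered 16.9 kb per Mb.

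The widest stretch spanned chrII:9108479-9133818, 25.3 kb, 3.25 times the next widest on the chromosome, with a −log10 q of 110.0. It was the strongest peak of II in the combined list. Replicate 1 held 2 peaks there that together overlapped 96.8% of its length, at chrII:9108526-9123081 with a −log10 q of 7.98 and at chrII:9123287-9133254 with 15.3. The 205 bp between them equals the smallest gap between any neighbouring peaks of chromosome II in that list. The stronger of the 2 ranked 11 among the 103 replicate 1 peaks on II. Its −log10 q was 7.21 times higher in the combined list, the highest ratio among the 101 overlapped peaks of the chromosome, whose median was 2.47 (quartiles 2.13 and 2.80). Breadth was therefore shared between the lists at this stretch, while its standing by q-value differed between them.

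A gene table of the newer assembly WBcel235 lists jun-1 itself on chromosome II. Whether the 25.3 kb stretch covers jun-1 was not analysed, because that table's positions do not belong to the build of the lists. Reads from the transgene's jun-1 copies and from the native gene would align to the same place. Because the input samples had no values, binding and extra copies there cannot be told apart from these lists.

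**Figure D3:**
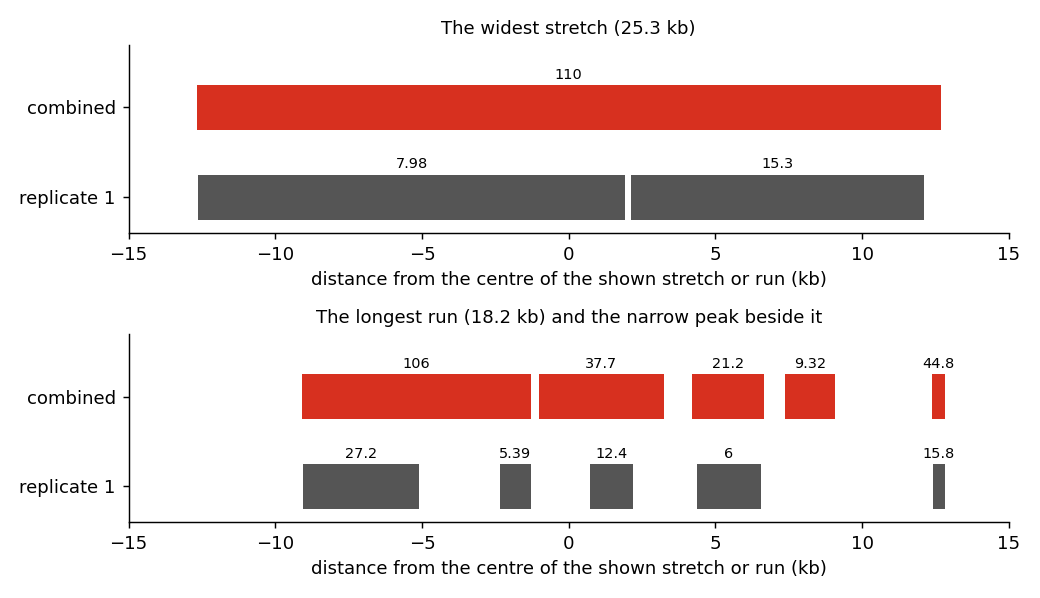
Positions of combined peaks (red) and replicate 1 peaks (grey) in the widest stretch of chromosome II (top) and in its longest run (bottom), in kb from the centre; numbers are −log10 q. The 25.3 kb stretch was covered by 2 replicate 1 peaks, and the first peak of the run, 7.81 kb wide, by 2 separate replicate 1 peaks.

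The second widest region was a run of adjacent peaks. Its 4 peaks, with gaps of under 1000 bp between them, spanned chrII:10541817-10559992, 18.2 kb, of which 16.3 kb (89.4%) lay in peaks. The first was 7808 bp wide with a −log10 q of 106, the second 4276 bp with 37.7, the third 2440 bp with 21.2 and the last 1733 bp with 9.32. Replicate 1 overlapped the first 3 and not the last. Within the first, replicate 1 had a peak at chrII:10541850-10545792 (−log10 q 27.2) and another at chrII:10548556-10549626 (5.39), 2763 bp apart, and together they overlapped 64.2% of it. A separate narrow peak of 452 bp at chrII:10563274-10563725 lay 3281 bp beyond the run, with a −log10 q of 44.8, and its replicate 1 partner had 15.8. The run was the longest by span among the autosomes, the next being 10.3 kb on V.

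Most of the 10 widest peaks were recovered by replicate 1 only in part. Replicate 1 had a peak in all 10, but it overlapped between 27.8 and 96.8% of their length, with a median of 59.1%. For the other 91 overlapped peaks of the chromosome the median was 82.3%. The 10 were picked by the same width that divides the overlap, so these medians are not a like comparison. At chrII:8741788-8748271, of 6.48 kb and a −log10 q of 88.3, the replicate 1 peak spanned 76.4% of the length. At chrII:11149646-11154210, 4.57 kb and 73.2, it spanned 37.6%. At chrII:5335310-5339202, 3.89 kb and 66.2, it spanned 60.1%. The lowest value was at chrII:6888134-6892217, of 4.08 kb and a −log10 q of 18.8, where the replicate 1 peak was 1137 bp wide. The remaining members were at chrII:11616748-11621050, chrII:10549879-10554154, chrII:6345088-6348854 and chrII:11633908-11637505, with overlaps of 58.1, 34.1, 65.7 and 37.2%. In 4 of the 10, replicate 1 overlapped under 50% of the length.

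The strongest peaks on chromosome II were mostly broad. The 10 strongest were 452 to 25340 bp wide, with a median of 3830 bp, and 6 of them were also among the 10 widest. Only those of 710 and 452 bp were narrower than 800 bp. The strongest outside the 10 widest was at chrII:2378267-2379121, with a width of 855 bp and a −log10 q of 103. It was the top peak of II in replicate 1, where it had 41.1 and where its partner overlapped 95.1% of it. A further pair of moderate width, at chrII:5543297-5544460 (1164 bp, 50.6) and chrII:5844499-5845208 (710 bp, 50.3), had replicate 1 values of 19.9 and 19.4 and overlaps of 97.9 and 98.3%. Of the 10 strongest combined peaks, 9 had partners among the 10 strongest of replicate 1 on II. The exception was the 25.3 kb stretch. The weakest of the 10 had a −log10 q of 40.8, and the next peak in order had 39.4. Over all 412 peaks, Spearman's rho between width and −log10 q was 0.52, and on the other autosomes it ranged from 0.48 to 0.62. This is a description across peaks, which share libraries and a caller.

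**Figure D4:**
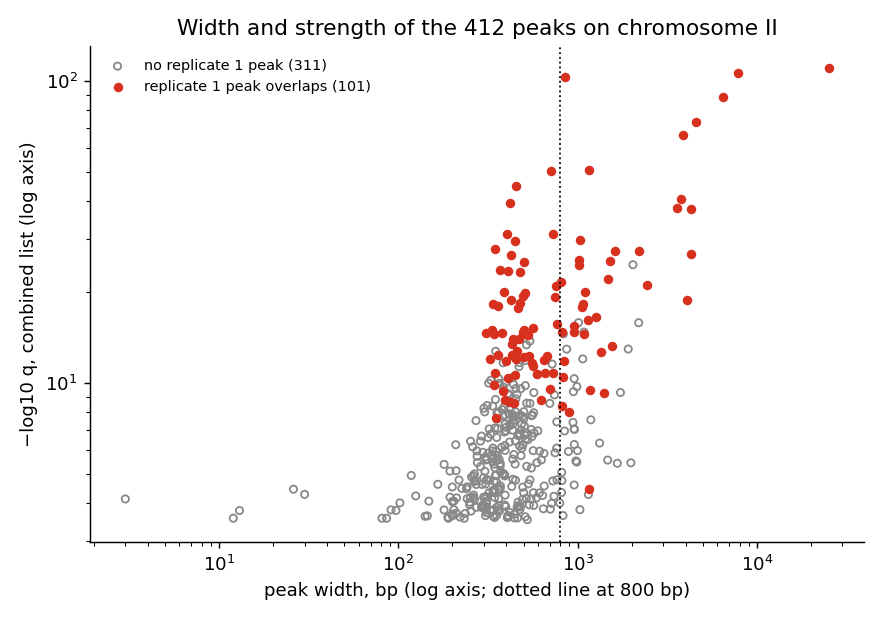
Width and −log10 q of the 412 combined peaks of chromosome II on log axes, filled where a replicate 1 peak overlaps by at least 1 bp and open where none does. Overlapped peaks lie mostly in the upper part, and the peak of 25340 bp lies at the far right with the highest −log10 q.

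Replicate 1 overlapped 101 of the 412 combined peaks by at least 1 bp (24.5%, 20.4 to 29.0%), beside 25.7% over all 6 chromosomes. All 103 replicate 1 peaks of II took part. The share was 24.4% on the other autosomes together (odds ratio 1.004, 0.788 to 1.28, Fisher's exact test, adjusted p = 1). That pooled value hides a spread, since the share was 14.9% on I, 29.3% on III, 28.9% on IV and 26.3% on V. Chromosome II stood between I and the others. By bases, replicate 1 covered 34.5% of the combined peak length on II, 30.4 to 32.2% on III, IV and V and 21.4% on I. Without the widest peak of each chromosome the value on II was 28.3%, against 31.9, 31.7 and 28.7% on III, IV and V, so the higher value on II rested on the 25.3 kb stretch.

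Support fell steeply with strength. The combined list was cut by q-value into 10 groups of nearly equal size, taken over all chromosomes. On II, replicate 1 overlapped 41 of 42 peaks in the strongest group (97.6%), 33 of 42 in the second (78.6%), 18 of 41 in the third (43.9%), 7 of 35 in the fourth (20%) and 1 of 43 in the fifth (2.33%). In the weaker 5 groups it overlapped 1 of 209 peaks, at chrII:6926075-6927234, where the combined −log10 q was 4.47 and the replicate 1 value 3.96. On III, IV and V together the first 5 groups gave 99.4, 87.1, 62.3, 30.9 and 13.3%, each above the value on II. Within groups of strength, the pooled (Mantel-Haenszel) odds ratio of II against III, IV and V was 0.458 (0.297 to 0.706), and against all 4 other autosomes it was 0.951 (0.639 to 1.42). At matched strength, replicate 1 thus supported fewer peaks on II than on III, IV and V, a result that depends on leaving out chromosome I and was picked with the values known.

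**Figure D5:**
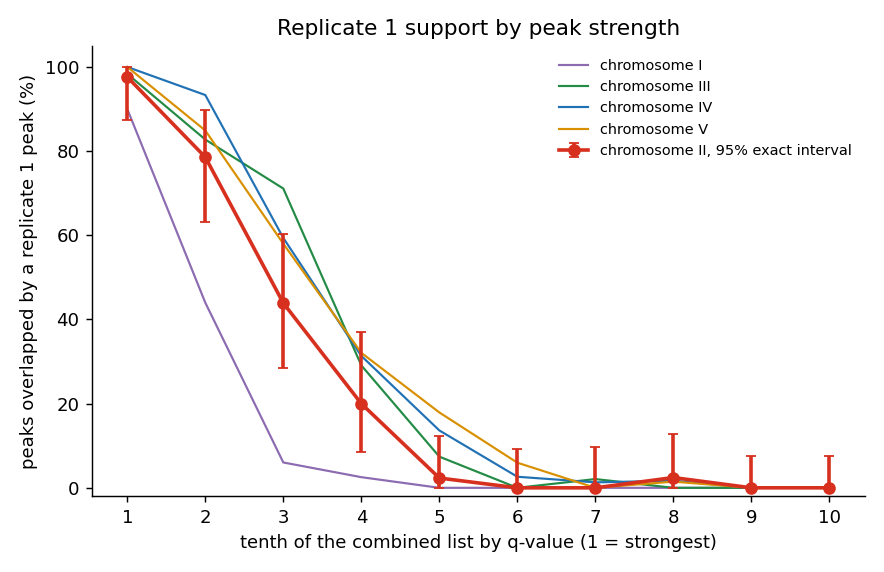
Share of combined peaks overlapped by a replicate 1 peak, by group of strength from the strongest (1) to the weakest (10), for chromosome II with 95% exact intervals and for the other autosomes as thin lines. In groups 2 to 4 chromosome II, with 78.6, 43.9 and 20%, ran below III, IV and V and above I.

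The peaks of II that replicate 1 did not detect were mostly weak and narrow. The 311 of them had a median width of 392 bp and a median −log10 q of 5.39, against 590 bp and 15.2 for the 101 overlapped ones. Among the 72 peaks of 800 bp or more, 39 were overlapped (54.2%, 42.0 to 66.0%), against 62 of the 340 narrower peaks (18.2%). Support rose with width on the other autosomes too. From 200 to under 400 bp the overlapped share was 10% on II and 9.14% there, and from 400 to under 800 bp 29.1 and 32.1%. From 800 to under 2000 bp it was 46.6 and 53.2%, and from 2000 bp 85.7 and 91.9%. Of the 100 strongest peaks on II, 16 had no partner. The strongest of these was at chrII:8015311-8017345, of 2035 bp and −log10 q 24.7. Then came chrII:1233071-1234082 (15.9), chrII:10445661-10447851 (15.8), chrII:10389696-10390781 (14.8) and chrII:5184704-5185536 (14.6). The last 4 belonged to the second group of strength and were 833 to 2191 bp wide, where the median peak of II in that group was 531.5 bp wide. The depth of replicate 1 is unknown, so these are peaks not detected there.

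Peaks on chromosome II were spaced widely. The median of the 411 gaps between neighbours was 20.6 kb, the largest among the autosomes, where the others had 8.84 to 14.7 kb. Gaps of up to 1 kb numbered 40, gaps of 1 to 10 kb 122, gaps of 10 to 100 kb 214 and longer gaps 35. The smallest gap was 222 bp. In all, 74 peaks (17.96%, 14.4 to 22.0%) had another within 1000 bp, beside 20.8% over all 6 chromosomes. The share was 21.9% on the other autosomes, a difference that did not pass (odds ratio 0.779, 0.595 to 1.02, Fisher's exact test, adjusted p = 0.174). By chromosome it was 18.1% on IV and 17.9% on X, near II, and 22.5 to 23.6% on I, III and V. With a limit of 2000 bp the share was 27.9% on II against 36.0% on the other autosomes and passed (adjusted p = 0.00360 by the exact test). In the stronger 50% of the combined list, at 1000 bp, the shares were 18.2 and 18.4%. In replicate 1, at 1000 bp, it was 5.83 against 15.02% (6 and 94 peaks, adjusted p = 0.0312 by the exact test). A list with fewer peaks per Mb has fewer close neighbours, and these shares were not adjusted for density.

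The 74 peaks formed 34 runs, of which 29 were pairs, 4 were triples and 1 was the run of 4 described above. By span, the next longest after the run of 4 were the pairs at chrII:5335310-5341415 (6.11 kb) and chrII:5329665-5333103 (3.44 kb). The triples spanned chrII:9617108-9620382 (3.27 kb), chrII:8382789-8385788 (3.00 kb), chrII:5184704-5187272 (2.57 kb) and chrII:5280937-5282905 (1.97 kb). Replicate 1 had a peak in the second of these and in none of the other 3. Over all runs, 21 of 34 (61.8%) held at least 1 peak with a replicate 1 partner, and the other autosomes ranged from 35.2% on I to 63.5% on IV. Of the 74 peaks in runs, 48 lay in the middle part of the chromosome, 22 in the high-numbered part and 4 in the low-numbered part. Peaks in runs had a median −log10 q of 8.56, and 35.1% of them had a replicate 1 partner (24.4 to 47.1%). Isolated peaks had a median of 5.98 and a partner in 22.2% (17.9 to 27.0%).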

How the data were processed

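The 2 ChIP samples and 2 input samples were grouped by their titles, which match the source names. The free-text descriptions read the other way round, naming input DNA for the ChIP samples and the antibody for the inputs. Peaks were called with PeakSeq on WormBase WS180, per the file headers and source column. The q-value (an adjusted p-value) in each list is as the authors deposited it. The PeakSeq version, aligner, filters, control, depth and the making of the combined list remain not given in the sources used here. Each chromosome was taken to run from base 1 to its last peak end over the lists, and a peak's midpoint gave its part and stretch. Gaps are counted between peak edges.

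Chromosome II was compared with I, III, IV and V by a two-sided exact binomial test of density and by Fisher's exact tests of shares, with Benjamini-Hochberg adjustment over 5 comparisons and a threshold of 0.05. At an alternative or added setting, the p-value took the place of the main one before adjustment. The number of settings tried was therefore not adjusted for. Regions named are the 10 strongest, the 10 widest, the 5 runs with the most peaks, the fullest and emptiest stretches and the 5 strongest peaks without a replicate 1 partner; others were named after their values were seen. The member peaks, lists and tests were chosen with earlier results of these data known. Counting was tested on simulated data. Tests used SciPy 1.17.1 and statsmodels 0.14.6, tables pandas 2.3.3 and NumPy 2.4.6, and plots matplotlib 3.10.9, all under Python 3.11.15. Genes and sequences were not analysed here.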

Additional observations from a re-analysis of the deposited data

How the results depend on the processing

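The density deficit of chromosome II kept its direction and passed the threshold under each of its 6 alternatives, with ratios of 0.723 to 0.785. Without replicate 1 or replicate 2 in turn the ratio was 0.723 to 0.729, the middle share 46.8 to 47.6%, the share of peaks of 800 bp or more 17.0 to 22.3% and the share in runs 5.83 to 17.96%. Values without replicate 1 come from a list that nearly equals the combined one. The low-numbered share stayed below that of the other autosomes and passed under all 6 alternatives tried, at 16.5 to 20% for a part of the same length and 12.9 against 19.2% in the first 25% of the length. Replicate 1 support on II moved from just above to below that of the other autosomes with a reciprocal overlap of 50% (21.8 against 22.1%), midpoints within 100 bp (19.2 against 20.3%), chromosome I left out (24.5 against 28.1%) and within groups of strength (odds ratio 0.951). Of these the difference passed only when groups of strength and the omission of I, added after seeing the data, were combined (odds ratio 0.458). The broad share turned at a limit of 600 bp (25 against 25.1%). In replicate 1, with no peaks joined, it passed at 2000 bp (7.77%). In the combined list it passed at the added limits of 2000 bp (3.40%) and 4000 bp (1.699%), but not at 1500 bp (5.10%). It did not pass at 2000 bp with the longest run on II alone joined to 1 peak, with or without the 25.3 kb stretch (2.93 and 2.70% against 1.49%, odds ratios 2.00 and 1.83), or against III, IV and V alone (odds ratio 2.22), beside an odds ratio of 2.33 at 2000 bp in the full comparison. The share in runs passed with a gap limit of 2000 bp (27.9 against 36.0%) and in replicate 1 (5.83 against 15.02%), and was nearly equal in the stronger 50% of the list (18.2 against 18.4%). The cause of these changes was not tested. Support has no value without replicate 1. No paired analysis was possible because only the ChIP samples had lists, and their partners by number are inputs. Unknown depth limits statements on undetected peaks.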
